A study of Ascaris suum with 10 samples.

Results

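The 138 genes described here are testis transcripts of the pig roundworm Ascaris suum that were listed under 1 RPKM in each other column of tissues and stages. They were chosen from the deposited values by 2 limits, a testis level of 5 RPKM or more and a level under 1 RPKM in each of the 7 other columns of the table. RPKM, as the authors named the unit, is the read count scaled to gene length and library size. The 138 are 0.893% of the 15446 genes in the table and 2.09% of the 6593 genes (42.7%) that reached 5 RPKM in testis, called testis-expressed genes below.

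All worms came from a North American wild population, with no treatment given. The adult male tissue was the germinal zone of the testis. It was set beside the germinal zone of the ovary, the embryo column, larvae of the second stage at day 7, adult intestine, muscle with hypodermis, and the carcass of adult males and of adult females (muscle, hypodermis, pharynx and neurons). The embryo column stands for 3 libraries, labelled 24, 46 and 64 hr, and whether it is a mean or a pool is not stated. Levels at each embryo time are therefore unknown. Each other column is 1 library of polyadenylated RNA, the number of worms behind it is not given, and no spread between replicates can be had. Every value below is therefore a description of these libraries, with no test.

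In the testis of nematodes, germ cells pass from mitosis through meiosis into spermatids, which mature into crawling sperm without a flagellum. Sperm crawl by means of a cytoskeleton built from major sperm protein, and much of the transcription that sperm need takes place before the meiotic divisions end. Ascaris also removes parts of its germline genome from somatic cells in early cleavage, and the series was made to map the expression of its genes over tissues and stages. The table gives identifiers and no gene names, so the role of each of the 138 genes, its place in the genome and its fate in DNA elimination were not analysed here. The tissues could not be checked against marker genes for the same reason.

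The 138 genes were expressed at low to moderate levels in testis. Their median was 15.5 RPKM, with quartiles of 9.9 and 24.3 RPKM, a lowest value of 5.1 and a highest of 71.5. The median of all 6593 testis-expressed genes was close to it, 16.4 RPKM. Together the 138 genes held 0.311% of the summed testis RPKM. Of the 903 genes with at least 100 RPKM in testis, 0 met the rule. The genes numbered 36 of the 2053 at 5 to under 10 RPKM (1.75%), 55 of the 1596 at 10 to under 20 RPKM (3.45%), 44 of the 1344 at 20 to under 50 RPKM (3.27%) and 3 of the 697 at 50 to under 100 RPKM (0.430%).

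**Figure D1:**
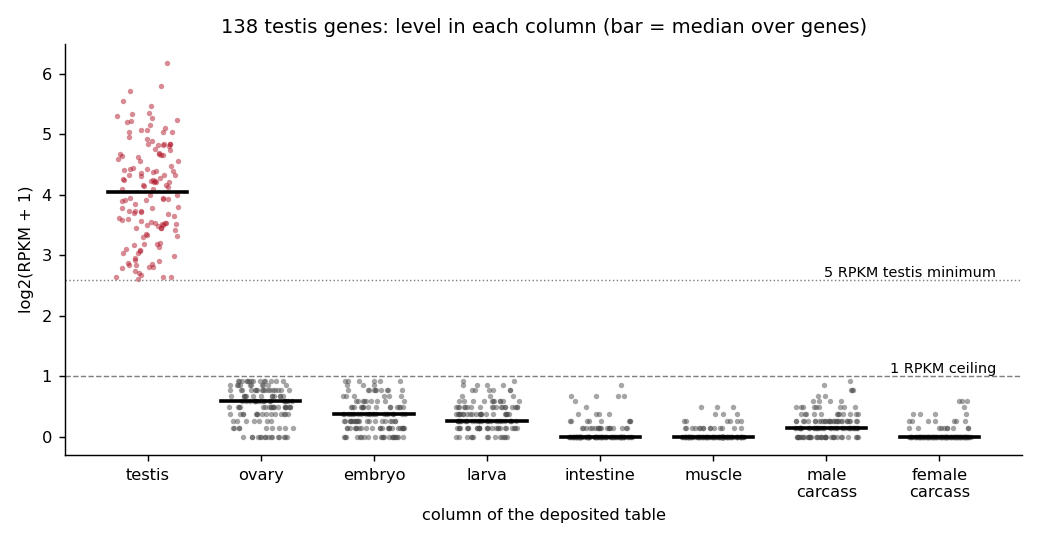
Level of the 138 genes in each column as log2(RPKM + 1), with a point for each gene and a bar at the median over genes. Testis runs from 5.1 to 71.5 RPKM with a median of 15.5, and in ovary, embryo and larva most points lie above 0 while in intestine, muscle and female carcass the median is 0.

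ASG00473 was the highest, at 71.5 RPKM in testis against 0.7 in ovary, 0.6 in embryo, 0.8 in larva, 0.1 in intestine and 0.2 in male carcass, and it was listed at 0 in muscle and female carcass. ASG12349 followed with 54.8 RPKM in testis, 0.5 in larva and in male carcass, 0.4 in ovary and 0.1 in embryo. ASG12373 had 51.2 RPKM in testis, and its highest value elsewhere was 0.7 RPKM in ovary. The next 7 genes lay between 36.4 and 46 RPKM.

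Among those 7, ovary was the highest other column for 6, and ASG13416 (39.6 RPKM in testis) had 0.6 RPKM in embryo and 0.5 in ovary. ASG01324 (46 RPKM in testis) reached 0.9 RPKM in ovary and 0.3 in intestine. ASG13424 had 43.2 RPKM in testis and 0.8 in ovary. ASG15098, ASG13810, ASG14726 and ASG02742 had 39.5, 38.4, 37.3 and 36.4 RPKM in testis and between 0.5 and 0.7 RPKM in ovary. All 10 were listed at 0 in muscle, and 9 were at 0 in female carcass, where ASG14726 had 0.1 RPKM.

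At the lower limit, ASG14168 (5.1 RPKM in testis), ASG01190 and ASG03583 (5.2 RPKM each) were just inside, with 0.3, 0.4 and 0.5 RPKM in ovary. ASG11122, ASG11121 and ASG12574 were just outside, at 4.9, 4.8 and 4.7 RPKM in testis. ASG11121 and ASG11122 carry adjoining numbers. At the upper limit elsewhere, 20 of the 138 genes had 0.9 RPKM as their highest value outside testis, and admitting values of exactly 1 RPKM would have given 160 genes. Values were deposited with 1 decimal, so a gene at 0.9 and a gene at 1 RPKM may differ by little more than rounding.

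Listed values outside testis were low by the rule but not all 0. Whether they reflect expression in those tissues was not tested. Of the 138 genes, 0 were listed at 0 in all 7 other columns. The 5 genes at 0 in 6 of the 7, singled out after their values were seen, came closest. ASG04507 had 19.8 RPKM in testis and 0.4 in larva, ASG11323 had 10.6 in testis and 0.1 in ovary, and ASG02747 had 8 in testis and 0.1 in larva. ASG13348 had 6.5 RPKM in testis and 0.2 in embryo, and ASG09277 had 5.4 in testis and 0.1 in larva. The most common case was 3 columns at 0, which held for 49 genes, and 6 genes had a value above 0 in all 7.

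The highest sums over the 7 other columns were 3.4 RPKM, for 3 genes. ASG09770 had 28.5 RPKM in testis, 0.9 in ovary and embryo and 0.6 in larva. ASG13157 had 17.5 RPKM in testis and 0.9 in each of ovary, embryo and larva. ASG03484 had 13.4 RPKM in testis and differed from both in its intestine value of 0.8 RPKM, which was the highest of the 138 genes in intestine.

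The other columns fell into those where most of the 138 genes had a value above 0 and those where few did. In larva 124 genes (89.9%) were above 0, in ovary 122 (88.4%), in embryo 116 (84.1%) and in male carcass 101 (73.2%). In intestine 38 (27.5%) were, in muscle 27 (19.6%) and in female carcass 25 (18.1%). Over the whole table the shares were 96.9% in larva, 96.0% in embryo, 95.1% in male carcass and 93.2% in ovary. They were 88.3% in female carcass, 87.3% in muscle and 76.7% in intestine. The same columns thus had the higher shares among all genes, with smaller differences, and the split is not particular to the 138. The ceiling of 1 RPKM favours lower shares among the 138. Values were deposited in steps of 0.1 RPKM, so a level below that step may be listed as 0. The split between the columns depends on that step too.

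By level, ovary was the highest of the other columns. The mean over the 138 genes was 0.461 RPKM in ovary, 0.304 in embryo, 0.285 in larva, 0.175 in male carcass, 0.0638 in intestine, 0.0348 in muscle and 0.0399 in female carcass. Ovary alone was the highest other column for 60 genes, embryo for 23, larva for 20, intestine for 2 and male carcass for 4, and 29 genes had a tie. As a share of the testis level summed over the 138 genes, ovary stood at 2.54%, embryo at 1.67%, larva at 1.57% and male carcass at 0.962%, and the remaining columns between 0.192% (muscle) and 0.351% (intestine). These shares depended on the scaling. Scaling by the median of ratios gave 0.876% for ovary, 0.366% for embryo, 0.515% for larva, 0.619% for male carcass and 0.130% for female carcass. Scaling by the upper quartile gave 1.68% for ovary, 0.770% for embryo and 1.00% for larva, and scaling to equal sums gave 3.43%, 2.31% and 2.24% for the same columns. Ovary had the highest mean under each of 3 rescalings of the columns too, but the order below it did not hold. Male carcass, at 0.230 RPKM, passed larva (0.214) and embryo (0.165) with scaling by the upper quartile, and also with scaling by the median of ratios (0.204 against 0.170 and 0.121).

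Residual values in ovary, embryo, larva and male carcass were higher at higher testis levels. Across the 138 genes, Spearman's rho with the testis level was 0.34 for larva, 0.34 for ovary, 0.33 for male carcass and 0.21 for embryo, but 0.06 for female carcass, 0.05 for intestine and -0.09 for muscle. These values are across genes of the same 8 columns, which are not independent, and the rule caps the values they rest on. In female carcass, intestine and muscle, 113, 100 and 111 of the 138 genes were listed at 0. Most ranks there were ties, so a rho near 0 in those columns says little. In male carcass 52.8% of the 36 genes at 5 to under 10 RPKM in testis were above 0, as were 70.9% of the 55 at 10 to under 20 and 91.5% of the 47 above that. For ovary the 3 shares were 77.8%, 85.5% and 100%, for embryo 77.8%, 80.0% and 93.6%, and for larva 86.1%, 87.3% and 95.7%. In intestine they were 19.4%, 30.9% and 29.8%, in female carcass 13.9%, 18.2% and 21.3%, and in muscle 25%, 16.4% and 19.1%. The share in intestine thus differed between the lowest and highest of these levels by about as much as that in larva, although its rho was near 0.

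Below the 138 genes on the same scale lie 538 genes that were under 1 RPKM in all 7 other columns and under 5 RPKM in testis. Of the 386 listed at 0 in testis, 34.5% were above 0 in ovary, 57.3% in embryo, 59.3% in larva and 38.3% in male carcass. Of the 61 at 1 to under 5 RPKM in testis, 57.4% were above 0 in ovary, 75.4% in embryo, 73.8% in larva and 44.3% in male carcass. Low values in these columns were thus also common among genes listed at 0 in testis. Over the range of the 138 genes, the share climbed by the most percentage points in male carcass.

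**Figure D2:**
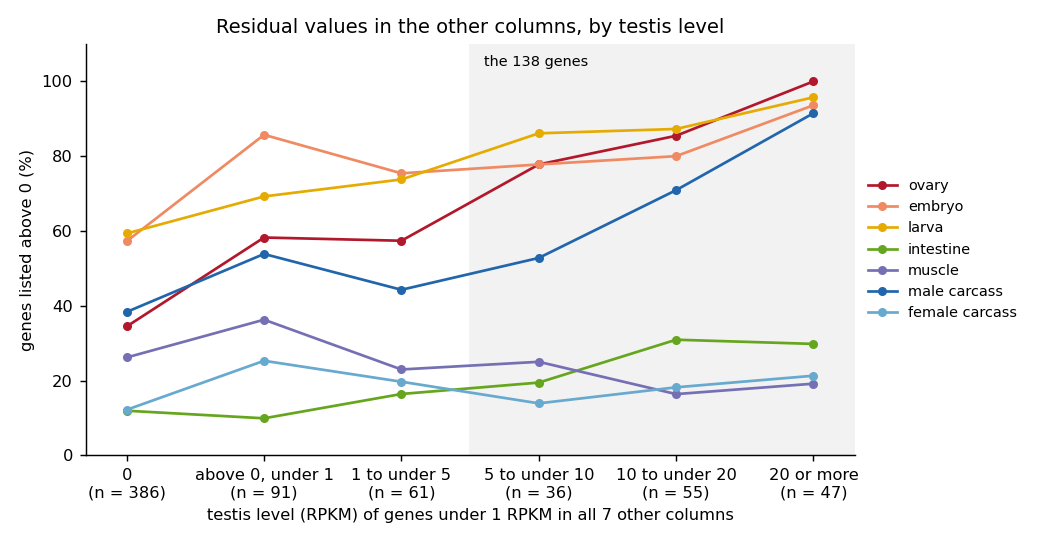
Percentage of genes listed above 0 in each other column, for genes under 1 RPKM in all 7 of them, grouped by testis level in RPKM; the shaded part holds the 138 genes. Male carcass climbs to 91.5% and ovary to 100% at 20 RPKM or more, while muscle and female carcass end at 19.1% and 21.3%.

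The carcass libraries, listed with the same tissues, differed for the 138 genes. Male carcass was above female carcass for 86 of the 138 genes (62.3%) and below it for 6, with 46 equal, against 46.5% of all genes above it and 47.9% below. Among the 477 genes under 1 RPKM in all 8 columns, male carcass was above female carcass for 161 (33.8%) and below for 52 (10.9%). The share above varied with testis level. It was 38.9% for the 36 genes at 5 to under 10 RPKM in testis, near that of the 477 genes, 63.6% for the 55 at 10 to under 20 RPKM and 78.7% for the 47 above that. The 138 genes averaged 0.175 RPKM in male carcass against 0.0399 in female carcass, both near the deposited step of 0.1 RPKM. Over the whole table, 762 genes were listed at 0 in male carcass and 1811 in female carcass. Values of 0 were thus more common in the female library among genes at large too. Under each of the 3 rescalings the counts were 98 above and 6 below, because equal nonzero values separate once the columns are scaled. The male animals carry a testis and the female animals do not, and whether testis RNA contributed to the male carcass library was not tested. In bulk libraries of this kind, fewer cells of a type and less RNA per cell cannot be told apart.

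Ovary decided membership more than any other column. Of the testis-expressed genes, 298 (4.52%) were under 1 RPKM in ovary, against 681 (10.3%) in embryo, 707 (10.7%) in larva, 1083 (16.4%) in male carcass, 1216 (18.4%) in female carcass, 1750 (26.5%) in muscle and 1889 (28.7%) in intestine. A further 243 testis-expressed genes missed the rule through 1 column. For 160 of these (65.8%) that column was ovary, for 59 embryo, for 8 larva, for 7 male carcass, for 2 female carcass, for 6 intestine and for 1 muscle.

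The 160 genes that missed the rule through ovary were higher in testis than the 138, with a median of 43.6 RPKM and a highest value of 126.4, and 30 of them lay above the highest of the 138. Their ovary values had a median of 1.8 RPKM and a highest value of 6.7, and 96 of them were under 2 RPKM. ASG11639 had 126.4 RPKM in testis and 2.5 in ovary, ASG05265 had 114.2 and 3.2 RPKM, and ASG05749 had 113.7 and 4 RPKM. In relation to testis, ovary stood at a median of 3.95% for the 160 genes and 2.72% for the 138 genes (quartiles 1.30% and 4.86%). The limit of 1 RPKM in ovary is what separates the 160 genes from the 138, so nothing is read from this contrast.

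A wider set of testis-led genes gives the scale of this percentage. Testis-led means 5 RPKM or more in testis and at most 1/5 of the testis level in every other column, which 1251 genes (8.10% of the table) met, all 138 among them. For the 1113 testis-led genes outside the 138, ovary stood at a median of 3.92% of testis, larva at 1.39%, embryo at 1.35%, male carcass at 0.799%, female carcass at 0.153%, intestine at 0.248% and muscle at 0.0285%. The medians of the 138 genes were lower than these in ovary, were 0 in intestine, muscle and female carcass, and were close to them in larva (1.42%), embryo (1.54%) and male carcass (0.790%). Values were deposited in steps of 0.1 RPKM. At the testis levels of most of the 138 genes, shares as small as those in intestine, muscle and female carcass would be listed as 0. The medians of 0 thus show no difference from the other testis-led genes. At 3.92%, a gene passes 1 RPKM in ovary once its testis level passes 25.5 RPKM, and 31 of the 138 genes lay at or above that level. The ceiling therefore keeps, at high testis levels, only genes with a low ovary percentage, and ASG12349 had the lowest of the 10 highest genes, 0.730%.

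**Figure D3:**
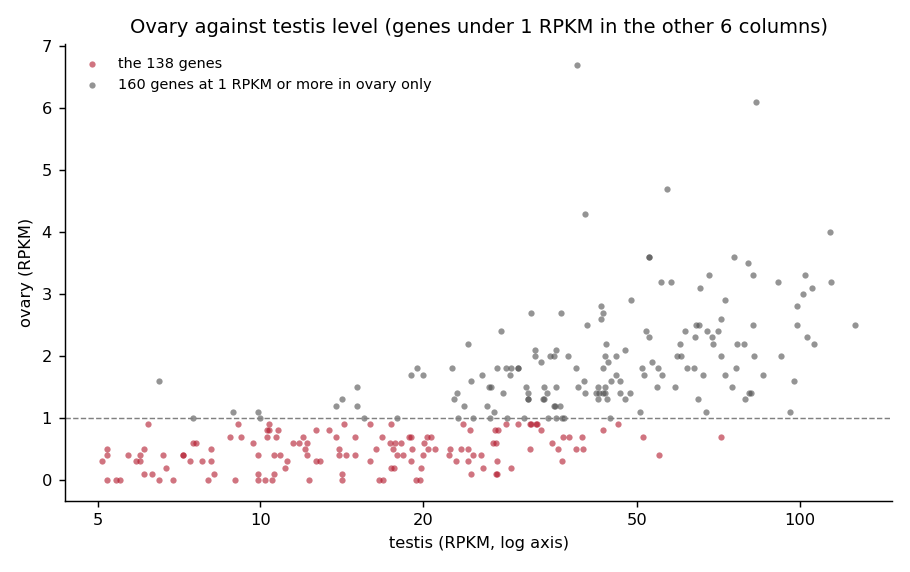
Ovary level against testis level in RPKM (testis on a log axis) for the 138 genes and for the 160 genes that reached 1 RPKM in ovary and in no other column outside testis. The 160 genes lie on or over the dashed line at 1 RPKM in ovary and have a median of 43.6 RPKM in testis, against 15.5 for the 138 genes.

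By size of difference, 136 of the 138 genes had a testis value above the highest other value by at least 2 on the log2(RPKM + 1) scale, a difference that 8.30% of all genes reached. The rule nearly fixes this count, so nothing is read from it. The differences ran from 1.92 to 5.33 with a median of 3.43, and the scale understates the change of low genes. The tissue specificity index tau, where 0 means an even level and 1 a level above 0 in a single column, ran from 0.857 to 0.994 over the 138 genes. It was 0.9 or more for 132 of them (95.7%), which is 39.9% of the 331 genes (2.14% of the table) with that tau whose highest column was testis at 5 RPKM or more. The rule used the values behind tau too.

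With each other column put in the place of testis, the same limits gave far fewer genes. Testis had 138 genes, larva 47, embryo 28, intestine 27, male carcass 17, muscle 4, ovary 2 and female carcass 1. Among genes at 5 RPKM or more in the leading column, these were 2.09% of 6593 in testis and 0.517% of 9096 in larva. The shares were 0.492% of 5489 in intestine, 0.296% of 9449 in embryo and 0.233% of 7310 in male carcass. They were 0.0684% of 5851 in muscle, 0.0229% of 8722 in ovary and 0.0134% of 7484 in female carcass. The median level in the leading column was 15.5 RPKM for the testis genes, against 10.8 RPKM for the male carcass genes, 8.6 for the intestine genes, 7.25 for the embryo genes and 7.1 for the larva genes. It was 15.05 RPKM for the 2 ovary genes and 7.6 for the 4 muscle genes, and the 1 female carcass gene had 17.2 RPKM. The highest testis gene, at 71.5 RPKM, lay below the highest male carcass gene, at 480.4 RPKM. The carcass columns and muscle contain some of the same tissues, so a gene of those tissues may fail the ceiling. Testis had the highest of the 8 counts under ceilings of 0.5 and 2 RPKM and under the 3 rescalings as well.

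The identifiers carry numbers from 1 to 15446 with none missing, and these numbers were not part of the rule. The sources used here do not state what the order of the numbers follows. Over all genes, levels at adjoining numbers were weakly alike, with Spearman's rho between 0.18 and 0.28 in the 8 columns (0.26 in testis). It was between 0.067 and 0.13 at a distance of 2 and between -0.0091 and 0.017 at a distance of 10. The likeness in level thus reached over a few neighbouring numbers.

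Runs of consecutive numbers held 16 of the 138 genes (11.6%), in 7 runs, and the other 122 stood alone. For 9 of the 138 genes (6.52%) the next number was also one of the 138, while the 138 make up 0.893% of all numbers. The latter share takes no account of the uneven spread of the 138 genes over the numbering, described below. Adjoining numbers were also shared more often in wider sets. Of the 1251 testis-led genes, 26.6% were followed by another, against their 8.10% of all numbers, and 52.3% of the 6593 testis-expressed genes were, against 42.7%. Under the same limits in other columns, 5 of the 27 intestine genes (18.5%), 1 of the 28 embryo genes and 0 of the 47 larva genes were followed by another of their kind.

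The longest run had 4 genes, ASG13944 to ASG13947. ASG13944 had 34.7 RPKM in testis, with 0.6 in ovary and embryo and 0.2 in larva. ASG13945 had 30.1 RPKM in testis, with 0.9 in ovary, 0.4 in larva and 0.1 in embryo. ASG13946 had 14.2 RPKM in testis, with 0.2 in embryo, 0.1 in male carcass and 0 in ovary. ASG13947 had 12.1 RPKM in testis, with 0.5 in ovary, 0.3 in embryo and 0.2 in larva.

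All 4 had 0.1 RPKM in male carcass and were listed at 0 in intestine and muscle. The gene before them, ASG13943, had 226 RPKM in testis and missed the rule with 3.2 RPKM in ovary and 1.5 in larva. The gene after them, ASG13948, had 0.3 RPKM in testis but 36 in muscle, 23.3 in female carcass and 35.5 in male carcass. The testis pattern thus ended between adjoining numbers on that side.

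The other 6 runs had 2 genes each. ASG05736 (16 RPKM in testis) and ASG05737 (27.3 RPKM) stood within 6 consecutive testis-led genes, ASG05734 to ASG05739, of which ASG05735 reached 342 RPKM in testis and 60.1 in ovary. ASG11457 and ASG11458 had 16.9 and 24.6 RPKM in testis and at most 0.5 elsewhere, and ASG11456 before them had 24.1 RPKM in testis and 1.4 in embryo. ASG07587 and ASG07588 had 24.5 and 14.2 RPKM in testis, and ASG15174 and ASG15175 had 20.7 and 12.7. ASG02747 and ASG02748 had 8 and 8.1 RPKM in testis, and ASG14168 and ASG14169 had 5.1 and 7.2. A further 3 pairs were separated by 1 or 2 numbers, namely ASG13424 with ASG13426, ASG13517 with ASG13520 and ASG15388 with ASG15391.

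**Figure D4:**
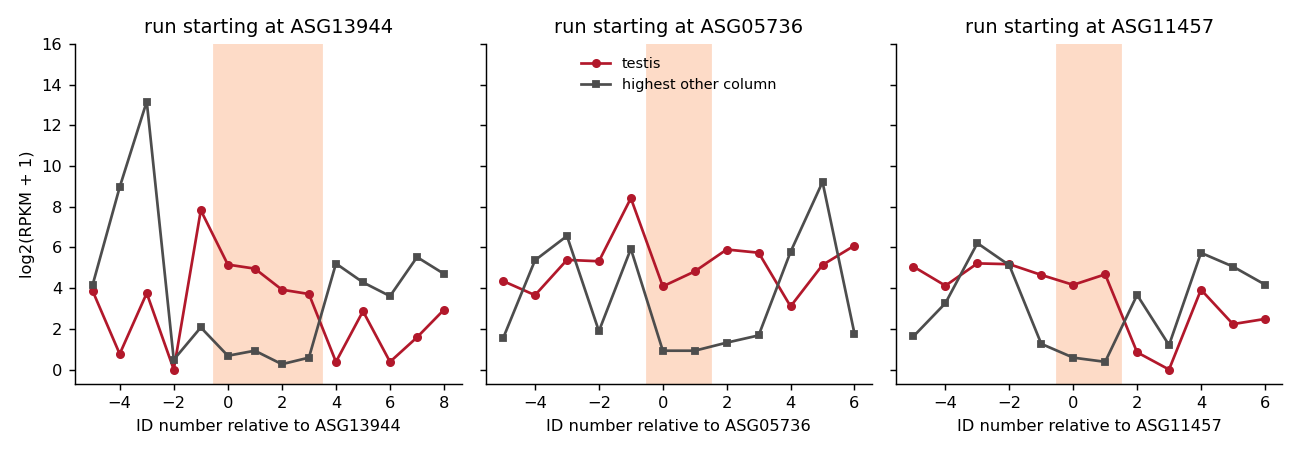
Testis level and highest level in any other column as log2(RPKM + 1), for the run of 4 genes, the 2 runs of 2 genes with the highest summed testis level, and 5 genes on either side of each, by ID number relative to the first gene of the run. Shading marks the genes that met the rule; ASG13943, just before the longest run, reaches 226 RPKM in testis, and ASG13948, just after it, has 0.3 RPKM.

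Genes next to the 138 in number were testis-led more often than genes at large, though most of them were not testis-led. The 257 neighbours outside the 138 had a median of 5 RPKM in testis, against 3.3 over all genes, and lower medians than all genes in each other column, such as 3.9 against 7.3 RPKM in ovary and 0.3 against 1.7 in intestine. Of the 257, 61 (23.7%) were testis-led, against 8.10% of all genes, and testis was the highest column for 75 (29.2%), against 12.9%. Testis-expressed genes made up 130 of the 257 (50.6%), against 42.7% of all genes. These comparisons take no account of where the 138 genes lie in the numbering, which is described below. At a distance of 2 numbers the testis-led share was 14.1%, and at distances of 3 to 10 it lay between 8.79% and 13.7%. The 61 neighbours had a median of 101.7 RPKM in testis and ran from 8.1 to 25529.3 RPKM.

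ASG10597, at 25529.3 RPKM in testis and 1376.8 in ovary, was the highest of those neighbours and adjoins ASG10598, which met the rule with 35.6 RPKM in testis and 0.5 in ovary. A gene that met the rule could thus lie beside a far more abundant testis gene that failed it in several columns. In all, 60 of the 138 genes (43.5%) belonged to stretches of 2 or more consecutive testis-led genes, close to the 44.3% of the 1113 testis-led genes outside the 138. The longest testis-led stretch had 7 genes, ASG08877 to ASG08883, and its last gene, with 12 RPKM in testis and 0.7 in ovary, was the only one that met the rule.

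The 138 genes were spread unevenly over the numbering. In 10 blocks of 1544 or 1545 numbers, from the lowest to the highest, they counted 12, 7, 7, 8, 12, 11, 12, 17, 19 and 33. The last 2 blocks held 52 of the 138 genes (37.7%), 27.3% of the testis-led genes and 20.2% of the testis-expressed genes. Of the 126 genes that met the same limits in another column, 14 (11.1%) lay there. Among testis-expressed genes, 3.90% met the rule in the last 2 blocks and 1.64% in the first 8.

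Levels of all genes in the other columns moved with this position. In the last block the median over all genes was 5.15 RPKM in ovary, 5.3 in larva, 0.8 in intestine, 1.3 in muscle and 2.7 in male carcass, against 7.9, 10.6, 2.3, 3 and 5 RPKM in the first. In testis it was 3.1 against 3.5 RPKM, and in embryo 10.25 against 9.9. Their part in the uneven spread was not tested. The share in the last 2 blocks stayed between 30.2% and 44.7% under every alternative limit and scaling that left any gene.

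**Figure D5:**
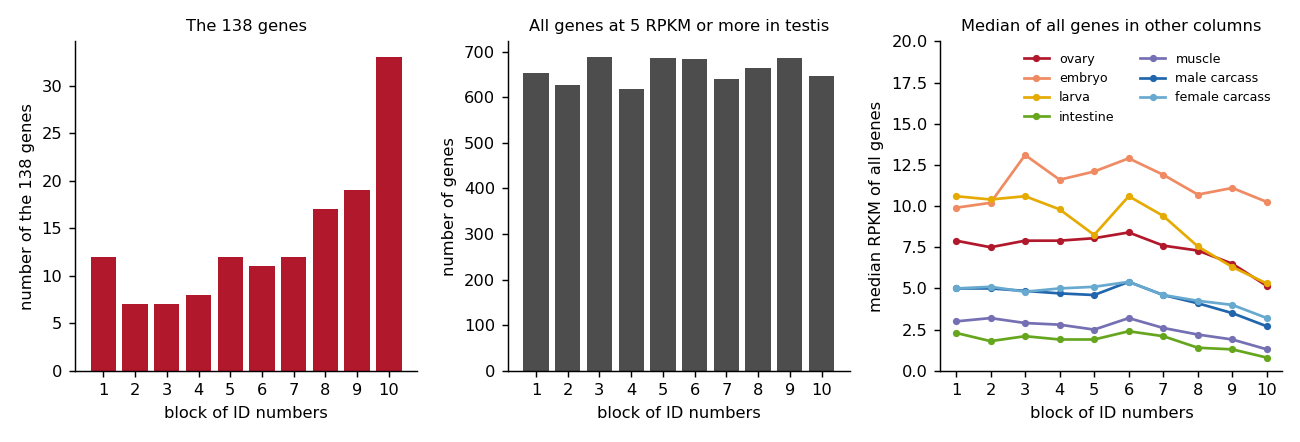
Number of the 138 genes, number of all genes with at least 5 RPKM in testis, and median RPKM of all genes in the 7 other columns, for 10 blocks of ID numbers from 1 to 15446. The 138 genes reach 33 in the last block, the testis-expressed genes stay between 617 and 688 per block, and the medians in ovary, larva and the adult somatic columns are lower in the last block than in the first.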

How the data were processed

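The authors deposited 1 table of RPKM values, given to 1 decimal for 15446 genes in 8 columns. The submitters' processing notes list TopHat and Cufflinks, without versions. Genome build, annotation, gene lengths, strandedness and read totals were not given in the sources used here, so depth is unknown and no interval or detection limit is given. Columns were matched to the 10 samples by title, except the embryo column, which stands for 3 libraries and was matched by developmental stage.

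The limits of 5 and 1 RPKM were applied to the deposited values with Python 3.11.15 and pandas 2.3.3, and the counting was checked on simulated data. The 138 genes and all limits were chosen with earlier results of these data known. Named genes are the 10 highest in testis, 3 on either side of the testis minimum, the 3 highest sums elsewhere, the 3 highest that missed the rule through 1 column and the genes of the 3 longest runs. All others were chosen after their values were seen. No name table or genome was used, so no sequence is shown.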

Additional observations from a re-analysis of the deposited data

How the results depend on the processing

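With 1 library per tissue no replicate could be left out, and the counts depended on the limits and the scaling. The 138 genes became 173, 102 and 47 at testis minimums of 2, 10 and 20 RPKM, and 43 and 354 at ceilings of 0.5 and 2 RPKM. They became 0 with all other columns at 0, and 59 with at most 2% of testis elsewhere, 29 of them among the 138. Scaling the columns to equal sums gave 113, the upper quartile 215 and the median of ratios 306. Ignoring ovary gave 298 genes, and ignoring another column gave 139 to 197. The 16 genes in runs became 2 at a testis minimum of 20 RPKM, 4 and 59 at ceilings of 0.5 and 2 RPKM, 0 with all others at 0, 4 with at most 2% of testis, 10, 33 and 62 under the 3 scalings in that order, 44 without ovary and 29 without embryo. The testis median of 15.5 RPKM became 12 and 19.05 at minimums of 2 and 10 RPKM, and 10.2 and 23 at ceilings of 0.5 and 2 RPKM.

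Under the same limits in other columns, ceilings of 0.5 and 2 RPKM gave 0 and 8 genes for ovary, 8 and 91 for embryo, 9 and 219 for larva, 8 and 62 for intestine, 0 and 17 for muscle, 4 and 34 for male carcass, and 0 and 1 for female carcass. The upper quartile gave 10 genes for embryo and 11 for muscle. The median of ratios gave 1 for ovary, 6 for embryo, 42 for intestine and 15 for muscle. The causes were not tested.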
